A study of Mus musculus with 5 samples.

Results

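The very start of the assembled sequence of mouse chromosome 9 held 269 of the 7045 peaks in 5 lists from CUT&RUN with an anti-BCLAF1 antibody. The members are the peaks on chromosome 9 that start at or after 3000000 and end within 40 kb of it (build mm10). The place was selected on the measured peaks, because it is crowded in these lists. The number of members is therefore a description, and no test was made of it. HSC WT 1 gave 58 members, HSC WT 2 gave 57, HSC KO gave 71, native LSK gave 65 and fixed LSK gave 18.

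CUT&RUN marks where a protein sits on chromatin: an antibody directs a nuclease to the protein, and the DNA fragments it cuts free are sequenced. Each of the 5 libraries came from 50000 sorted cells and the same anti-BCLAF1 antibody, and each has 1 peak list. HSCs are haematopoietic stem cells, here from E17.5 fetal liver and pooled from 24 to 26 embryos, with 2 wild-type (WT) libraries and 1 library whose genotype is labelled KO. LSK cells are a broader stem and progenitor population that lacks lineage markers and carries Sca-1 and Kit. They were WT, with 1 library of native cells and another made after fixation for 2 min in formaldehyde (0.1%, free of methanol). The tissue label of the LSK libraries is E17.5 fetal liver, whereas the protocol describes adult bone marrow pooled from 2 to 3 mice, so their age and tissue are uncertain. The labels name no strain and no allele for the KO, and whether HSC WT 1 and HSC WT 2 were made from different embryos is not said, so their spread may be technical. Peak lists hold no expression values, so neither the loss of the protein nor the cell types could be checked against markers. HSC KO gave 4712 of the 7045 peaks and 71 of the 269 members. If that library lacks BCLAF1, its peaks cannot be read as places where BCLAF1 sits.

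BCLAF1 is a nuclear protein known from work on transcription, RNA processing and the response to DNA damage. Mouse chromosomes 1 to 19 carry their centromere at one end, and the assembled sequence begins beside it. The flanking DNA of such regions is rich in satellite and other tandem repeats, in which a unit is copied head to tail. Where an assembly holds fewer copies of a repeat than the genome does, reads from many copies are placed on the few that are present. How reads with several possible positions were treated is not given in the sources used here, so its part in the values below was not tested.

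The window holds a single gene in the RefSeq table, Mir101c, a microRNA gene at chromosome 9 from 3038669 to 3038743. It starts 394 bp past the last member, and none of the 5 lists has a peak on it. Its mature sequence is printed because it is the only product that this table holds for the window. It is the RefSeq sequence (GRCm38.p6), read from the minus strand at chr9:3038680-3038698, with the seed (bases 2 to 8), which pairs with target RNAs, in capitals.
mmu-miR-101c: aCAGUACUgugauaacuga

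The next gene in the RefSeq table is Gm32390, a pseudogene that starts 98070 bp past the last member. The nearest protein-coding gene, Alkbh8, which encodes an enzyme that modifies transfer RNA, starts 296956 bp past it, at 3335231.

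The members filled the window from end to end in the 4 lists other than fixed LSK. They ran from 3000028 to 3038253 in HSC WT 1, from 3000031 to 3038239 in HSC WT 2, from 3000018 to 3038275 in HSC KO and from 3000024 to 3038269 in native LSK. In fixed LSK they ran from 3000306 to 3032948. Density was 1.52, 1.49, 1.86 and 1.70 peaks per kb in the first 4 lists, in that order, and 0.551 in fixed LSK. Peaks covered 26.1% of the span of HSC WT 1, 20.1% of that of HSC WT 2, 33.3% of that of HSC KO, 28.8% of that of native LSK and 5.43% of that of fixed LSK.

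No peak crossed the end of the window in any list, and a stretch without peaks followed the last member. After the last member, HSC KO had no peak for 220544 bp. The next one, from 3258820 to 3258924, had 31 reads and an enrichment of 14.9, against 2432 reads and 7.77 at the last member. In fixed LSK the empty stretch was 5005950 bp, in HSC WT 2 it was 6253366 bp, in native LSK 13291330 bp and in HSC WT 1 21503761 bp. The peaks beyond those 4 stretches had 3, 5, 8 and 595 reads in the same order. Peaks outside the window were few, from 260 in fixed LSK to 4446 in HSC KO on chromosomes 1 to 19, X and Y. The stretches were not compared with the usual distance between peaks.

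As a share of all peaks on chromosomes 1 to 19, X and Y, the members made up 13.0% of HSC WT 1 (58 of 447, exact 95% binomial interval 10.0% to 16.5%) and 10.8% of HSC WT 2 (57 of 528, 8.28% to 13.8%). They were 8.44% of native LSK (65 of 770, 6.58% to 10.6%) and 6.48% of fixed LSK (18 of 278, 3.88% to 10.0%). In HSC KO they were 1.57% (71 of 4517, 1.23% to 1.98%), the largest number of members and the smallest share, in the longest list. These intervals cover counting error only.

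Each list gives an enrichment, the ratio of reads at the summit (the highest point of a peak) to the local background, with a pseudocount of 1 on each. Together with the deposited p-value it returned a whole number of reads for each of the 269 members. The files do not say whether a read or a fragment was counted. Median summit reads were 1030 in HSC WT 1 (527 to 3434), 479 in HSC WT 2 (229 to 1787) and 1856 in HSC KO (935 to 4542). They were 946 in native LSK (491 to 2872) and 49.5 in fixed LSK (35 to 131). Peaks elsewhere on chromosomes 1 to 19, X and Y had medians of 18, 6, 16, 14 and 4 reads in the same order. Members were thus among the taller peaks of each list. They took 43 of the top 58 places by reads in HSC WT 1 and 39 of 57 places in HSC WT 2. They took 54 of 71 places in HSC KO and 47 of 65 in native LSK. In fixed LSK they took 1 of 18. There, 25 of the 260 peaks outside had more reads than the lowest member, and 16 had more than the highest.

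**Figure D1:**
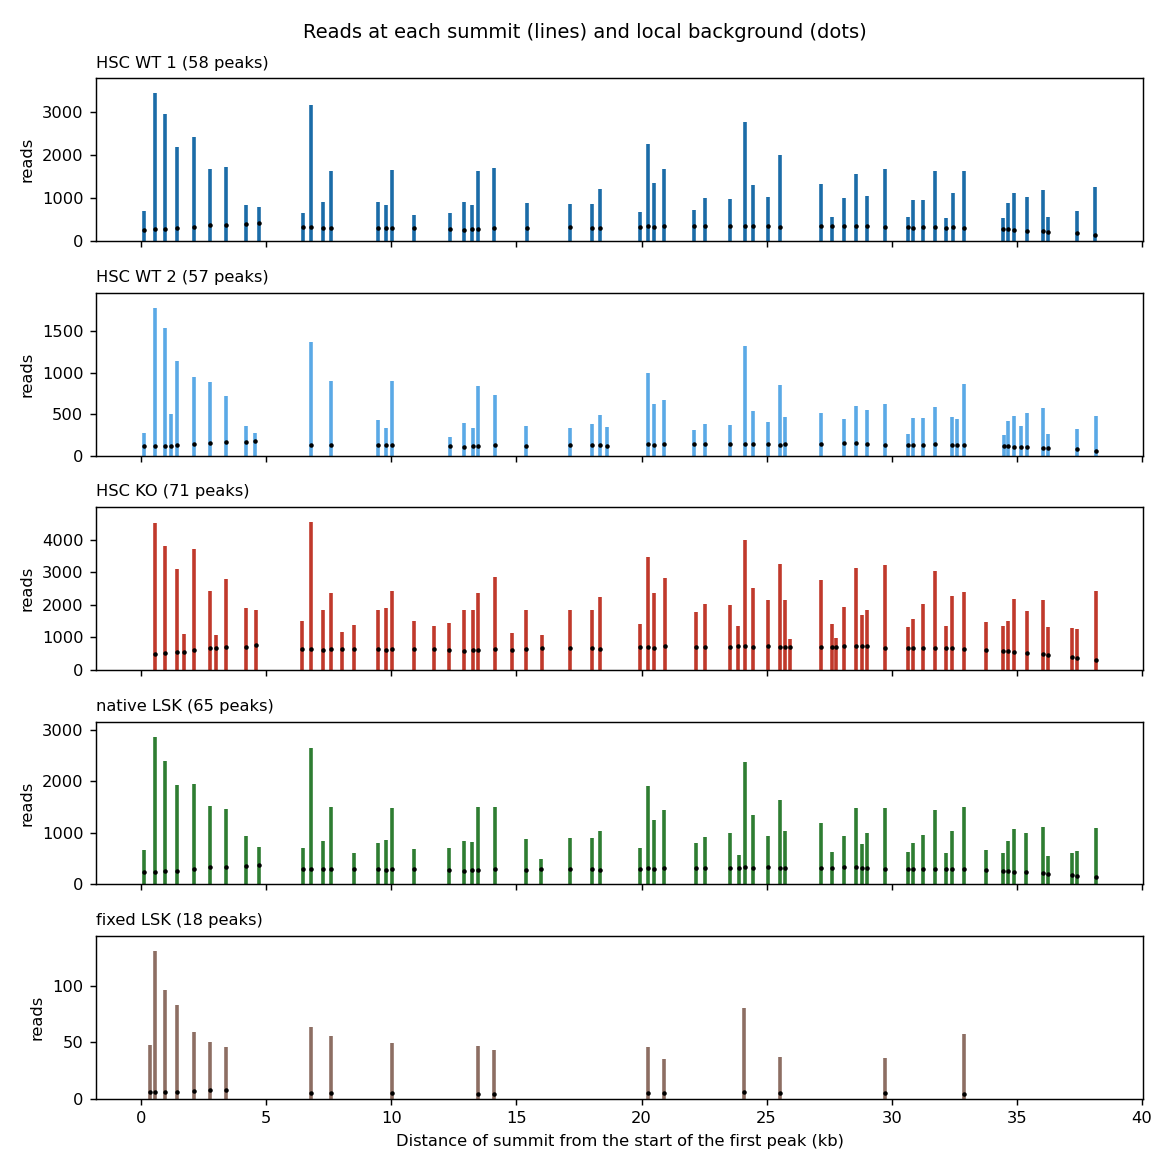
Each line is a peak summit, placed by its distance in kb from the start of the first peak (x axis), and its height is the number of reads at that summit in 1 list (y axis, a separate scale for each list). Black dots are the local background, with medians of 315 reads in HSC WT 1 and 5.37 in fixed LSK, and they lie below the tops of the lines, which reach 3434 and 131 reads.

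The background under the members was high as well. Its median was 315 reads in HSC WT 1, 129 reads in HSC WT 2 and 668 reads in HSC KO. It was 299 reads in native LSK and 5.37 reads in fixed LSK. The most common background of a list, taken here as the genome background and a measure of depth, was 0.339, 0.117, 1.15, 0.327 and 0.0220 reads. Under the members, the median local background was thus 930, 1104, 582, 914 and 244 times that of the genome. At the last member the local background was lower, with 141 reads in HSC WT 1 and 312 in HSC KO.

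Enrichment ordered the members differently. Medians were 3.45 in HSC WT 1 (1.61 to 12.6), 3.74 in HSC WT 2 (1.64 to 15.5), 2.94 in HSC KO (1.34 to 9.14), 3.17 in native LSK (1.64 to 11.8) and 8.12 in fixed LSK (5.50 to 19.6). Peaks outside the window had medians of 10.1, 6.19, 7.45, 9.28 and 4.79. The higher value of members in fixed LSK rests on the pseudocount. Without it the fixed LSK medians were 9.61 for members and 136.5 outside. In the other lists members had the lower median either way. Only 1 member, in HSC WT 2, was among the strongest peaks of its list by enrichment, taking as many places as the list has members. The enrichment is not scaled between libraries and ranks peaks within a list.

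Members were wider than other peaks at the median in the 4 lists with the most of them. Median widths were 138 bp in HSC WT 1, 121 bp in HSC WT 2, 147 bp in HSC KO and 138 bp in native LSK, against 107, 86, 85 and 95 bp outside. In fixed LSK the medians were 93.5 and 91.5 bp. The widest member, 625 bp from 3000018 to 3000642 in HSC KO, is the first of that list, and the same summit had peaks of 369 and 353 bp in the HSC WT lists, 381 bp in native LSK and 150 bp in fixed LSK.

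The same 2 summits led in nearly every list. The site at 3000562 had the highest enrichment in all 5 lists. HSC WT 1 had 3434 reads there, HSC WT 2 had 1787, HSC KO had 4512, native LSK had 2872 and fixed LSK had 131. Enrichments there were 12.6, 15.5, 9.14, 11.8 and 19.6. The site at 3000976, 1 summit further on, had enrichments of 10.4, 12.9, 7.35, 9.41 and 14.0, second in the lists other than HSC KO and after the site at 3038168 there.

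The next place differed. It went to the site at 3006811 in both HSC WT lists (3161 and 1374 reads) and in native LSK (2641 reads). That site had the most reads of all members in HSC KO (4542), and 64 reads in fixed LSK. The site at 3038168, the last member of 4 lists, came second in HSC KO with an enrichment of 7.77. It had 2432 reads there over a background of 312, against a median background of 668 under the HSC KO members. It was not called in fixed LSK. In fixed LSK the next place went to the site at 3024144, with 80 reads and an enrichment of 12.2. The weakest members were shallow by comparison. In HSC KO, the peak from 3025905 to 3026017 had 935 reads over a background of 697, an enrichment of 1.34. In HSC WT 1, the peak from 3027549 to 3027662 had 553 reads over 342. In HSC WT 2, the peak from 3004574 to 3004724 had 278 reads over 170. In native LSK, the peak from 3015978 to 3016086 had 491 reads over 299. In fixed LSK, the peak from 3003348 to 3003438 had 46 reads over 7.55.

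Neighbouring summits lay mostly within 1 kb of each other and never closer than 163 bp. Median distances were 484 bp in HSC WT 1 (57 distances, 184 to 1852), 471.5 in HSC WT 2 (56 distances, 171 to 2316), 439.5 in HSC KO (70 distances, 163 to 1877) and 476.5 in native LSK (64 distances, 192 to 1755). In fixed LSK, with 17 distances, the median was 814 bp (206 to 6118). Spacing was uneven: the coefficient of variation (SD over mean) was 0.671, 0.774, 0.631, 0.621 and 0.901. Over the 5 lists, 54 distances lay from 160 to 290 bp, 32 from 290 to 380 bp and 59 from 380 to 510 bp. Another 13 lay from 510 to 620 bp, 27 from 620 to 700 bp and 79 at 700 bp or more. The class limits were set after the distances were seen, and the lists share most summits, so these are not independent counts.

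A common period was looked for as the length at which the distances between summit pairs of 1 list, up to 2500 bp apart, came closest to whole multiples. The measure is the mean cosine, which is 1 when every distance is a whole multiple. At a period fixed beforehand it is near 0 when there is no relation. The highest value over many trial periods lies above 0 for unordered positions too, so its height was not compared with 0. Over 904 pairs the mean cosine was highest at 225.6 bp, with 0.248, and the next peak of the curve was at 115.8 bp with 0.0973. The lists share most summits, so neither these pairs nor the periods of single lists are independent. Each list alone gave 225.2 bp in HSC WT 1, 225.5 bp in HSC WT 2, 226.1 bp in HSC KO and 226.4 bp in native LSK, with mean cosines of 0.260, 0.276, 0.210 and 0.263. Fixed LSK gave 219.8 bp (0.630) from only 24 pairs, and 160.8 bp was nearly as high there (0.60).

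**Figure D2:**
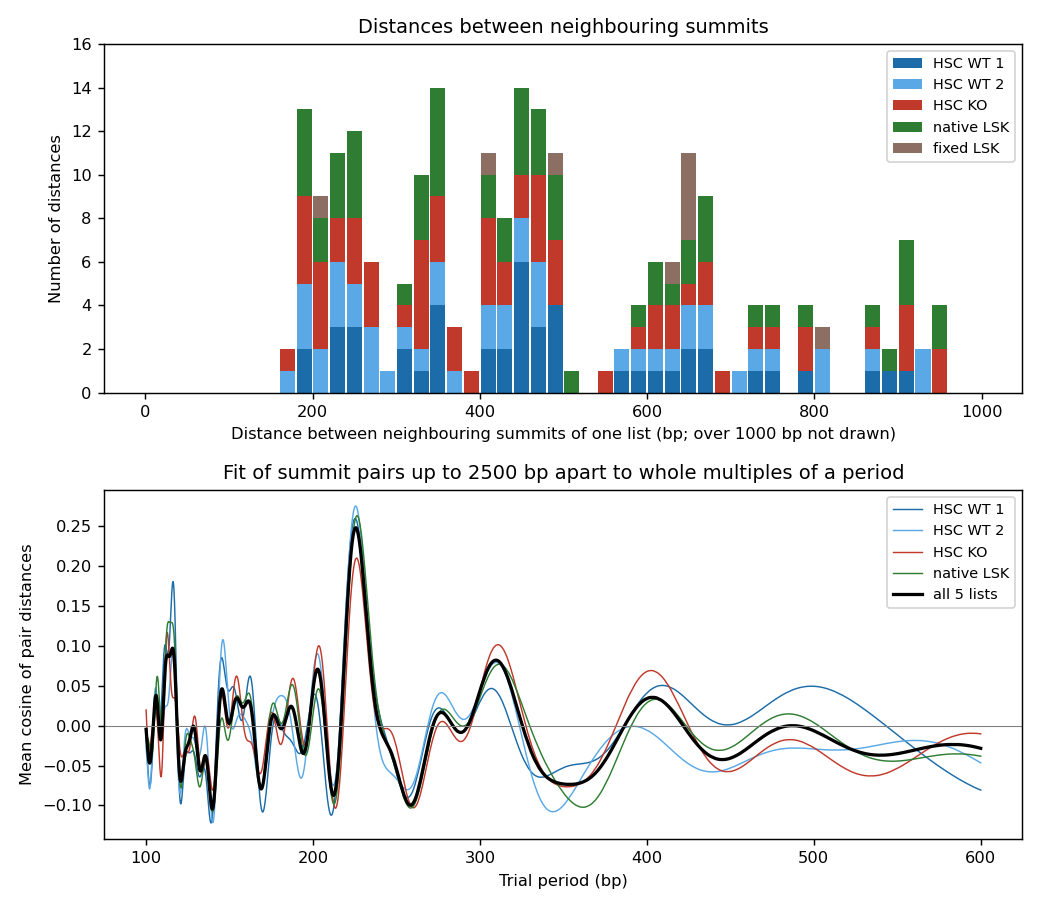
Upper panel, the number of distances (y axis) between neighbouring summits of a list, in bp (x axis, classes of 20 bp, 5 lists stacked). Lower panel, the mean cosine (y axis) against the trial period in bp (x axis) for 4 lists and for all 5 together, in which each of the drawn curves has its highest point between 225.2 and 226.4 bp.

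The regularity was partial. Of the distances between neighbours, 33.3% in HSC WT 1 and 28.6% in HSC WT 2 lay within 20 bp of a whole multiple of 225.6 bp. The share was 25.7% in HSC KO, 34.4% in native LSK and 11.8%, or 2 of 17, in fixed LSK. That band takes up 18.2% of all possible distances. The period was chosen to fit these same summits, so a share above 18.2% is in part built in and does not count as support for it. The class from 290 to 380 bp, with 32 distances, lies between 1 and 2 periods, around 338.4 bp. Summits were spread over many phases of the common period. The mean resultant length of their positions within the period, 1 for a single phase and 0 for an even spread, was 0.211, 0.185, 0.198, 0.224 and 0.116. With each list's own period it was 0.161, 0.162, 0.307, 0.287 and 0.417. The period rests on the summits: peak midpoints gave 125.4 bp as the best fit (mean cosine 0.130), with 226.1 bp at 0.112. No test of these values was made.

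Every member of the WT lists lay on sequence that HSC KO also called. All 58 HSC WT 1 members overlapped an HSC KO peak by at least 1 bp, as did all 57 of HSC WT 2, all 65 of native LSK and all 18 of fixed LSK. Over whole lists, members included, 90.4% of HSC WT 1, 66.3% of HSC WT 2, 84.4% of native LSK peaks and 34.5% of fixed LSK peaks overlapped an HSC KO peak. Outside the window the shares were 89.0%, 62.2%, 83.0% and 30.0%. HSC KO peaks cover 33.3% of their span here, so an overlap of 1 bp is easily met.

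Between the HSC WT libraries, 52 of 58 HSC WT 1 members (89.7%) met an HSC WT 2 peak, against 62.4% of the whole list and 58.4% outside. All 57 HSC WT 2 members met an HSC WT 1 peak, against 55.1% and 49.7%. The 6 HSC WT 1 members without a partner were among the lower ones, with 529 to 919 reads (median 629.5), against a median of 1116 for the 52 shared.

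From the HSC KO side, 58 of 71 members (81.7%) met a peak of either HSC WT list, against 9.92% of the whole HSC KO list and 8.77% outside. With the LSK lists added, 64 of 71 (90.1%) had a partner, against 16.2% and 15.1%. Of the native LSK members, 59 of 65 (90.8%) met an HSC WT peak, against 48.7% and 44.8%. All 18 fixed LSK members met a native LSK peak, against 29.5% of the whole list and 24.6% outside. In the other direction 17 of 65 native LSK members (26.2%) met a fixed LSK peak, against 10.4% and 8.94%. Held to the strongest 18 members of each list, that share was 83.3%. The place was chosen for its peaks in these lists, and shares inside and outside were not tested against each other.

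Shared members had summits at almost the same base. The median distance between summits of overlapping peaks was 2 bp from HSC WT 1 to HSC WT 2, 2.5 bp from HSC WT 1 to HSC KO and 1 bp from HSC KO to native LSK. Within 10 bp lay 49 of the 58 HSC WT 1 summits for HSC WT 2, 52 for HSC KO and 53 for native LSK, and 62 of the 71 HSC KO summits for native LSK.

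Joining summits of the 5 lists whose neighbours lay within 50 bp gave 79 sites, none wider than 21 bp and none with more than 1 summit of a list. A site is called in a list where that list has a summit, so a wide peak of another list can still cover it. Of the 79 sites, 17 were called in all 5 lists, 32 in 4, 8 in 3, 10 in 2 and 12 in 1. The 17 lie at 3000562, 3000976, 3001465, 3002130, 3002756, 3003419, 3006811, 3007616, 3010034, 3013485, 3014144, 3020260, 3020932, 3024144, 3025548, 3029769 and 3032899. The 32 were all in both HSC WT lists, HSC KO and native LSK. Both HSC WT lists called 51 sites, and HSC KO called 49 of those. Either HSC WT list called 64, and HSC KO called 57 of those. HSC KO called 14 sites that neither HSC WT list called, of which 7 were also in native LSK and 7 in no other list.

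**Figure D3:**
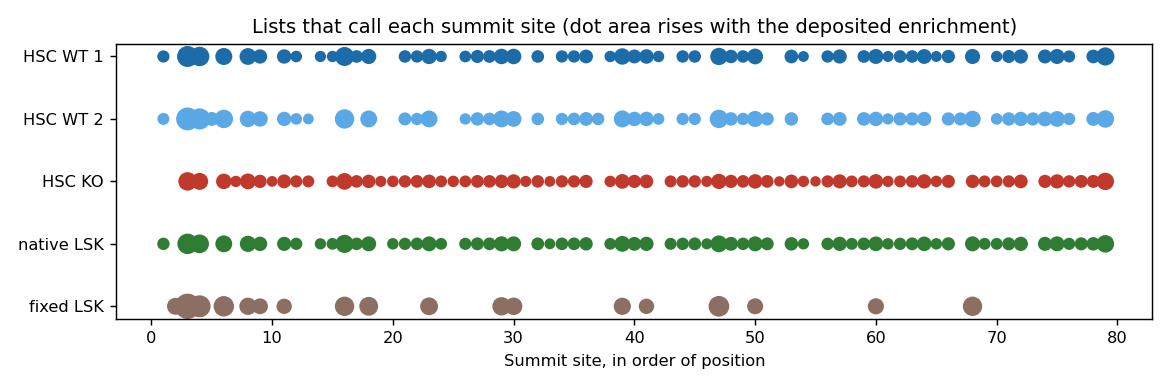
Each column of dots is 1 of the 79 summit sites in order of position (x axis), and each row is a list (y axis), with a dot where the list has a summit and a larger dot for a higher deposited enrichment. The 17 sites with a fixed LSK dot that are called in all 5 lists lie among the larger dots of the other rows.

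The 8 sites without an HSC KO summit were at 3000112, 3000352, 3001198, 3004713, 3018640, 3022106, 3032622 and 3035197. Each of the 8 lay inside an HSC KO peak whose summit was 76 to 450 bp away. HSC WT 2 alone had a summit at 4 of them, at 3001198, 3018640, 3032622 and 3035197. Each of those 4 also lay inside a wider peak of HSC WT 1 and of native LSK. Fixed LSK alone had a summit at 3000352, which lay inside a peak of HSC WT 1, HSC WT 2 and native LSK. Every one of the 79 sites thus had an HSC KO summit or lay inside an HSC KO peak.

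The sites called in all lists were the tall ones. In HSC KO, their median was 3112 reads (2354 to 4542), against 1894 at sites called in 4 lists, 1481 at sites called in 2 or 3, and 1107 (935 to 1337) at the 7 sites called in HSC KO only. Median HSC KO enrichments were 4.67, 2.95, 2.34 and 1.81 in the same order. By reads, the 17 sites shared with fixed LSK were the 17 tallest in HSC WT 1. They were also the tallest in HSC WT 2, where the lowest of them tied at 620 reads with a site that fixed LSK did not call. Among the 17 tallest of native LSK were 16 of them, and 12 in HSC KO. By enrichment, 14 of the top 17 sites in each HSC WT list, 11 in HSC KO and 14 in native LSK were among them. The fixed LSK list was also the shallowest, with a genome background of 0.0220 reads. Whether its fewer members come from fixation, from depth or from another difference between 2 single libraries cannot be told apart.

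Read numbers at shared sites followed each other closely between lists. Pearson's r of log2 reads was 0.990 between HSC WT 1 and native LSK (57 sites), 0.973 between the HSC WT lists (51 sites), 0.973 between HSC KO and native LSK (63 sites) and 0.965 between HSC WT 1 and HSC KO (55 sites). It was 0.881 between HSC WT 2 and HSC KO (51 sites), 0.818 between native and fixed LSK (17 sites) and 0.543 between HSC KO and fixed LSK (17 sites). Sites share their library and their place, so these values describe the lists and carry no p.

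To set the lists side by side, reads were divided by the genome background of their list. On this scale HSC KO was lower than HSC WT 1 at all 55 shared sites, with a median ratio of 0.573 (0.381 to 0.760). It was lower than HSC WT 2 at all 51 (median 0.452, 0.252 to 0.678) and lower than native LSK at all 63 (median 0.592, 0.449 to 0.686). HSC WT 2 was higher than HSC WT 1 at all 51 sites, with a median ratio of 1.26 (1.04 to 1.60), a smaller distance from 1 than those of HSC KO. Native LSK had a median ratio of 0.958 to HSC WT 1 (0.839 to 1.21, 57 sites) and of 0.754 to HSC WT 2 (0.555 to 1.11), lower at 50 of 51 sites. The deposited enrichment is relative to local background and not scaled between libraries, so it is no second measure of this difference. It was lower in HSC KO at 41 of 55 sites against HSC WT 1 and 35 of 51 against HSC WT 2. Against native LSK it was lower at 52 of 63. Sites of 1 library are not separate observations. Without scaling, HSC KO had more reads, with a median ratio of 1.94 to HSC WT 1 and 4.43 to HSC WT 2, and its local background was 2.09 and 5.11 times theirs. With 2 libraries against 1, the smallest p of an exact permutation test is 0.333, so none is given.

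The ratio depends on what the depth is measured by. At peaks outside the window that 2 lists share, the median ratio on the same scale was 1.01 for HSC KO to HSC WT 1 (300 peaks), 0.754 for HSC KO to HSC WT 2 (242 peaks) and 0.804 for HSC KO to native LSK (526 peaks). Relative to those peaks, HSC KO in the window stood at 0.567 of HSC WT 1, 0.599 of HSC WT 2 and 0.736 of native LSK. On this second scale, chosen after the values were seen, HSC WT 2 stood at 0.920 of HSC WT 1, which turns the direction between the HSC WT lists. Native LSK, too, stood lower on it, at 0.772 of HSC WT 1 and 0.807 of HSC WT 2, with all 57 and 48 of 51 sites below the median ratio outside. Ratios to fixed LSK moved the most. Native over fixed LSK had a median of 2.13 at 17 sites in the window and 0.264 at 54 shared peaks outside. HSC KO over fixed LSK had 0.963 at 17 sites and 0.160 at 61 peaks outside, so on the second scale it stood at 6.03 and turned direction. The shared peaks outside had to be called in both lists. Over all peaks outside, fixed LSK had a median of 4 reads and HSC WT 2 of 6, over genome backgrounds of 0.0220 and 0.117. Calls in such shallow lists favour places that are high for their depth, so the second scale is not a neutral measure of depth. The part of this in both turns of direction was not tested.

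**Figure D4:**
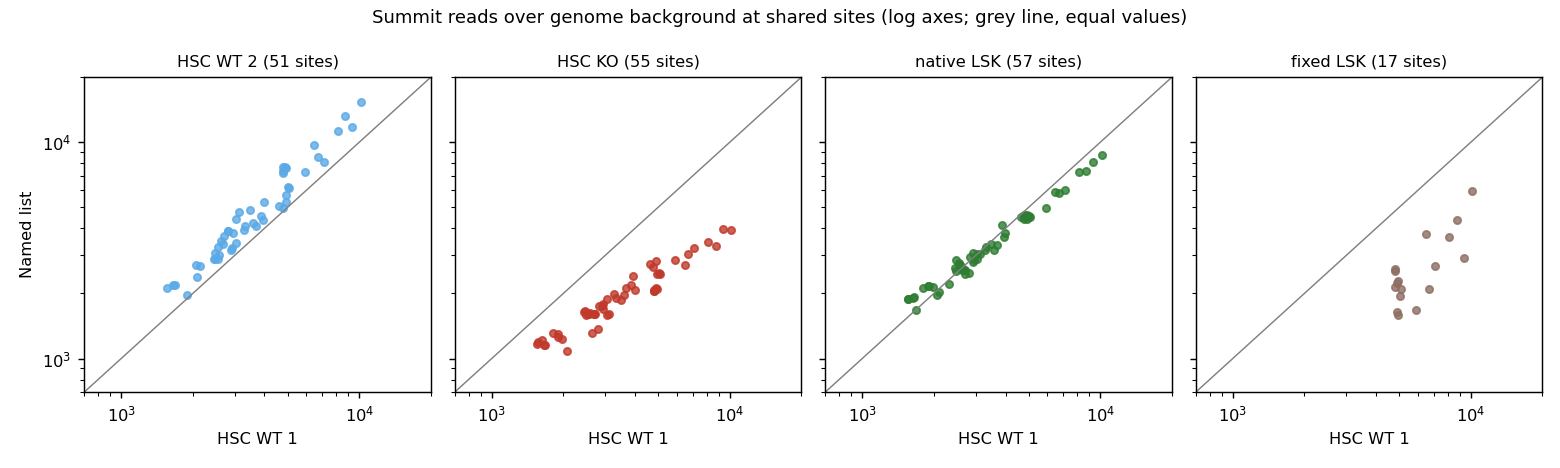
Each point is a shared site, with summit reads over the genome background in HSC WT 1 (x axis) and in the list named above the panel (y axis), both on log axes and without a unit, and the grey line marks equal values. HSC KO lies under the line at all 55 sites and furthest under it at the right, HSC WT 2 lies above it at all 51, and native LSK lies on both sides of it.

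The difference between HSC KO and HSC WT was not even across sites. By reads, the 17 sites called in all lists were the 17 tallest of each HSC WT list. Only 12 of them were among the 17 tallest of HSC KO. The ratio divides by HSC WT reads, so this split by itself favours a lower ratio at the 17. At the 17 sites called in all lists the median ratio of HSC KO to HSC WT 1 was 0.433 (0.381 to 0.574), and at the other 38 it was 0.607 (0.489 to 0.760). Against HSC WT 2 the medians were 0.308 and 0.510, and against native LSK 0.478 and 0.608. Tall and low sites thus lay closer together in HSC KO, where the tallest of the 55 sites had 3.63 times the reads of the lowest, against 6.52 times in HSC WT 1. The local background under the members behaved alike: in HSC KO it was 582 times the genome background, and in the HSC WT lists 930 and 1104 times. The same HSC KO library has the highest genome background (1.15 reads), and the part of that background in these ratios was not tested.

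The best period differed at other crowded places of these lists. The 3 windows of 50 kb with the next highest numbers of peaks were 50001 to 100000 and 100001 to 150000 of the unplaced sequence JH584304.1, with 235 and 113 peaks, and 19400001 to 19450000 of chromosome 14, with 42. Their best periods were 116.7 bp (mean cosine 0.403), 116.4 bp (0.368) and 329.1 bp (0.346), against 225.6 bp (0.248) here, where 115.8 bp was the next best (0.0973). Median distances between neighbouring summits were 464.5, 400.5 and 369 bp, against 477.5 bp here. Local background in the first of them was 750 times the genome background in HSC WT 1 and 512 times in HSC KO, against 930 and 582 times here. These places were named by rank of peak number, and the differences between them were not tested.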

How the data were processed

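The authors deposited 1 narrowPeak list per library. Positions are in mm10, per the submitters' processing notes. Which aligner, peak caller and control were used, and how duplicates were treated, is not given in the sources used here. Each deposited list gives a fold enrichment (a ratio), −log10 p-values and −log10 q-values, and a score, as the authors' caller wrote them. Enrichments rank peaks within a list only.

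Peaks in the window were taken from each list, and outside values use chromosomes 1 to 19, X and Y. Positions are printed from 1. For each peak, a whole number of reads and a background were solved from the enrichment (pseudocount 1) and the Poisson p-value (relative tolerance 0.0001). A whole number was found for 100% of peaks in each list, also above a −log10 p-value of 300. For the tallest members that tolerance would admit neighbouring whole numbers too. In the window, the chosen number missed the −log10 p-value by at most 0.0012, and the next best by at least 0.0172. Total depth is unknown. Reads carry no molecular identifiers, so intervals (exact Clopper-Pearson, 95%) cover counting error only. Pair distances up to 2500 bp were tried against periods of 100 to 600 bp in steps of 0.1 bp. Overlap needed 1 bp, and sites joined summits within 50 bp. No test was run, since every group but HSC WT has 1 library. The recovery and period steps were tested on simulated data. Python 3.11.15, numpy 2.4.6, pandas 2.3.3 and scipy 1.17.1 were used.

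Named are the genes in the window and the nearest beyond it, the first, last, lowest and 3 strongest members of each list, the sites called in all lists, and the 3 other 50-kb windows with most peaks. The sites without an HSC KO summit, the 5 sites with narrow peaks and the repeated run of summits were named after their values were seen. The members, lists and rules were chosen with earlier results of these data known. Alternatives changed the q-value minimum, window end, joining distance, overlap rule, peak position, pair distance, list size and libraries used.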

Additional observations from a re-analysis of the deposited data

How the results depend on the processing

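Of 117 alternative values, 88 kept within the spread or the 1.5-fold range set for them, 27 moved and 2 turned direction. The 88 include values that could not change, so this count overstates how far the results held. A minimum −log10 q-value of 5 removed no member, because the lowest was 9.09. A later window end added no peak, because the shortest empty stretch after the last member was 220544 bp. Counting summits within 50 bp once joined none, because neighbours lay at least 163 bp apart. With peak midpoints the median spacing was 493 bp (HSC WT 1), 495.5 bp (HSC WT 2) and 459.5 bp (HSC KO), and the period 125.4 bp. The period was 226.1 bp with pairs up to 1000 bp and 227.1 bp up to 5000 bp. Leaving out each library in turn gave 225.3 to 225.9 bp, with most summits shared between the lists that remained. With each list's own period, the resultant length was 0.161, 0.162, 0.307, 0.287 and 0.417. With summits within 25 bp as the overlap, 89.5% of HSC WT 2 met HSC WT 1 and 89.5% met HSC KO. Held to the strongest 18 members of each list, 88.9% of HSC WT 2 met HSC WT 1, 83.3% of HSC WT 1 met HSC KO, 77.8% each of HSC WT 2, native LSK and fixed LSK met HSC KO, and 83.3% of native LSK met fixed LSK. Without the pseudocount, the fixed LSK median enrichment was 9.61 for members and 136.5 for peaks outside the window. With depth taken from shared peaks outside the window, an alternative chosen after seeing the data, the read ratio was 0.599 for HSC KO to HSC WT 2, 0.736 for HSC KO to native LSK, 0.772 for native LSK to HSC WT 1 and 8.09 for native to fixed LSK. It turned from 1.26 to 0.920 for HSC WT 2 to HSC WT 1 and from 0.963 to 6.03 for HSC KO to fixed LSK. The peaks outside had to be called in both lists, which favours places where the shallower list is high for its depth. The cause was not tested in these cases. No paired analysis was possible because the result comes from no test and HSC KO has 1 library.

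Precision is limited by 1 library per group outside HSC WT, by the unknown total depth and, in fixed LSK, by 35 to 131 reads per member and 18 members.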

Other observations

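At 5 sites called in all lists, read numbers were close to each other. These 5, whose HSC KO peaks were under 100 bp wide, lay at 3002756, 3007616, 3010034, 3013485 and 3032899, and were picked after their values were seen. Reads at the 5 sites were 1625 to 1669 in HSC WT 1, 844 to 897 in HSC WT 2, 2354 to 2429 in HSC KO, 1489 to 1515 in native LSK and 47 to 57 in fixed LSK. Their coefficients of variation were 1.23%, 2.69%, 1.34%, 0.694% and 8.57%. Independent counting at the same means would give 2.47%, 3.38%, 2.05%, 2.58% and 13.9%. At the other 12 sites called in all lists the coefficients were 26.8%, 35.7%, 17.4%, 25.2% and 46.9%. Among these 12, the sites at 3003419, 3014144, 3020932 and 3029769 were also close in some lists. They had 1449 to 1500 reads in native LSK and 1665 to 1722 in HSC WT 1. In HSC WT 2 they had 620 to 729 reads, in HSC KO 2807 to 3237 and in fixed LSK 35 to 46. The 5 sites lay 4860, 2418, 3451 and 19414 bp apart. Since the 5 were picked on their values, the small spread is a description. The other 13 sites with an HSC KO peak under 100 bp, none of them called in all lists, had 1065 to 1834 reads there. The cause was not tested.

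A run of 3 summits also occurred a second time. In HSC KO, summits at 3009467, 3009817 and 3010032 came again 3453 bp further on with the same distances of 350 and 215 bp, and the closest other match among 2211 pairs of runs differed by 7 bp. The runs were picked after positions were seen. Reads in HSC KO were 1835, 1892 and 2429 in the first run and 1836, 1828 and 2362 in the second. In HSC WT 1 they were 916, 831 and 1653, then 908, 842 and 1625. In HSC WT 2 they were 430, 336 and 895, then 396, 337 and 844. In native LSK they were 808, 856 and 1489, then 836, 830 and 1494. Fixed LSK called only the third summit of each run, with 49 and 47 reads. HSC KO widths were 345, 147 and 97 bp, then 348, 147 and 96 bp. Sequence of the window was not used here, so whether the 2 stretches are copies of each other was not tested.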
